A study of Mus musculus with 444 samples.

Results

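The genes described here are 7 regulators of Ras and PI3K signaling: Nras, Hras, Nf1, Rasa1, Pik3r1, Akt1 and Gsk3b. They were chosen by name from the 25136 genes kept for analysis and were found in the count tables through their Entrez gene numbers, and all 7 had reads in both stages. The cells came from the mammary glands of female FVB/NJ mice, an inbred laboratory strain, with no treatment listed. They were sorted as total epithelium, with removal of cells that carried blood or endothelial surface markers (CD45, Ter119 and CD31). For total epithelium profiled on another platform the study also gives the surface marker CD24 as required, and it does not state this for the cells used here. Single cells were captured on the Fluidigm C1, a microfluidic device with 1 cell per chamber, and each became a separate library. There were 221 pubertal and 223 adult cells. The names of the count tables mark the pubertal mice as 4 weeks old and the adult mice as 10 weeks old, and the methods of the study give a somewhat later pubertal age. A figure legend of the study gives several mice per sort and more than 1 independent experiment, and the labels tie no cell to an animal or an experiment. Each stage was therefore treated as 1 sample. A stage difference here cannot be checked against replicates, and no p-value was computed.

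Ras proteins are small GTPases that switch on when growth factor receptors recruit exchange factors, and switch off when GTPase-activating proteins make them hydrolyze GTP. Active Ras starts the Raf, MEK and ERK kinase cascade and also binds PI3K, a lipid kinase whose product recruits the kinase Akt to the membrane. Akt in turn phosphorylates and inhibits Gsk3b, among many targets. In the mammary gland, growth factor receptors that act through these pathways are known for their part in the growth of the ducts at puberty.

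In these cells, Nras and Gsk3b were the members whose summed levels were more than 2-fold apart between the stages, both higher at puberty. That is 2 of 7, where 20.3% of the 7806 genes that reached 20 CPM (counts scaled to a common total) in a stage were at least 2-fold higher at puberty and 14.7% at least 2-fold higher in the adult. Nf1 lay just under 2-fold, Pik3r1 was higher in adult cells by less than 2-fold, and Hras, Rasa1 and Akt1 differed little, or in a direction that depended on which adult cells were taken. The summed levels of Nras and Nf1 were lower in cells with basal markers than in cells with luminal markers at both stages. The summed level of Hras was higher, but it rested on few cells. In the adult, Nf1 reads were found in 56.4% of cells with basal markers and 48.1% of those with luminal markers, against the direction of the sums. The Nras difference at puberty nearly vanished when cells were parted by keratin genes alone.

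Cells were retained with 100000 or more read pairs on the kept genes and 1500 or more of these genes detected, which left 171 pubertal and 152 adult cells, 323 of 444. The study retained more cells of each stage with the same stated limits, and the reason for the difference is not known. Before thinning, the retained cells held 101471 to 1354378 read pairs at puberty and 100883 to 1049746 in the adult. Each was thinned at random to 100000 read pairs, so that 1 read in 1 cell is worth 10 CPM and all levels below compare cells at equal depth. A median of 2818 genes was then detected per pubertal and 2655 per adult cell. At least 3 of 12 luminal markers reached 10 CPM in 162 pubertal and 147 adult cells, and at least 3 of 12 basal markers in 95 and 139. No cell had 3 of 4 immune markers, and Ptprc, which encodes CD45, was at 0 in the thinned counts of all retained cells. At least 3 of 4 endothelial markers were present in 8 pubertal and 1 adult cells, 3 of 4 Schwann cell markers in 2 and 1, and 3 of 6 fibroblast markers in 16 and 12. The adult cells were not uniform. All 107 retained adult cells titled 48 to 188 had reads of Rn7sk, a small nuclear RNA, against 8 of the other 45 adult cells (17.8%) and 35 of the 171 pubertal cells (20.5%). This split was seen in the data, it is not a group of the labels, and its origin is not known. Stage ratios are therefore also given against each of the adult sets.

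**Figure D1:**
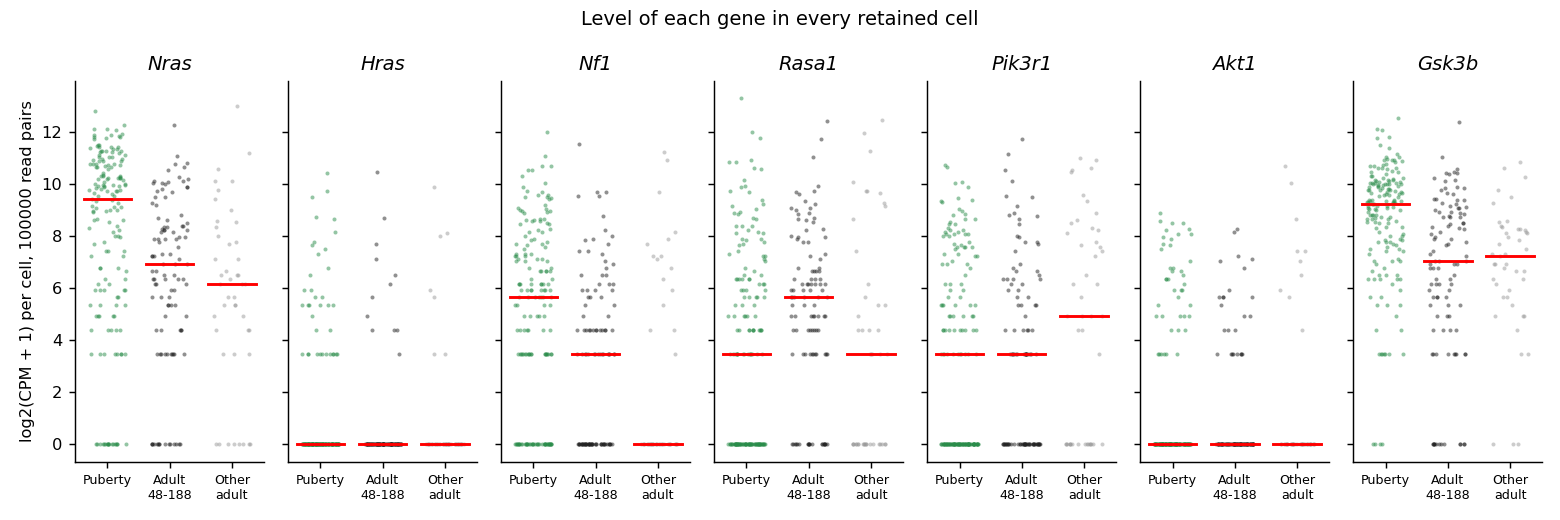
Level of the 7 genes in each retained cell, as log2(CPM + 1) after thinning to 100000 read pairs, for 171 pubertal cells (green), 107 adult cells titled 48 to 188 (black) and 45 other adult cells (gray); each point is a cell and red lines are medians. The medians of Nras and Gsk3b lay higher in the pubertal cells than in either adult set, and Hras and Akt1 had a median of 0 in all 3.

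Nras, Gsk3b and Nf1 had the 3 largest ratios of puberty over adult, and their promoters are shown for that reason. RefSeq windows of 300 bases, from 250 before to 50 after a transcript start, were searched on both strands of GRCm38.p6, the assembly also called mm10, for the GC box (GGGCGG), the CCAAT box (CCAAT) and the TATA box (TATAAA). Capitals mark every match. The windows lie at chr3:103058035-103058334 (Nras), chr16:38088751-38089050 (Gsk3b) and chr11:79339642-79339941 (Nf1), all on the forward strand. Those of Nras and Gsk3b begin upstream of the gene. That of Nf1 lies inside the span of the gene, which begins at 79339590, so it surrounds a transcript start downstream of the first base of the gene.
Nras: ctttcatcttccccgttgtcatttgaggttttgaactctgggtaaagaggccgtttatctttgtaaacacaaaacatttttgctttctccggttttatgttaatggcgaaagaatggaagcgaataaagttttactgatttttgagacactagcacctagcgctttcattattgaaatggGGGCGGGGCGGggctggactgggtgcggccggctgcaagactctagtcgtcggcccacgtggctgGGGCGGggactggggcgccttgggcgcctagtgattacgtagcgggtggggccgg
Gsk3b: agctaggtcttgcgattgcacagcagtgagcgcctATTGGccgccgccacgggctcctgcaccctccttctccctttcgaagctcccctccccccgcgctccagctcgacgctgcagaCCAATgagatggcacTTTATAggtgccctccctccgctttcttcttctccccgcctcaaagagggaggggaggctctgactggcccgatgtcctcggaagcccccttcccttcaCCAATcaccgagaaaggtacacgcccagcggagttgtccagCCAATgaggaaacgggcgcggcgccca
Nf1: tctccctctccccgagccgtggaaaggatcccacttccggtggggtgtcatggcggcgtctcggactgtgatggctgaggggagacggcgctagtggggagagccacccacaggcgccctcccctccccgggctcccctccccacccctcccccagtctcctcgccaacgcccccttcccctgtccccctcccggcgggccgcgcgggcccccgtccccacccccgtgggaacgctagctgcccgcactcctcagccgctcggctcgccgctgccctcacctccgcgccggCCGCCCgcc
The Nras window held 3 GC boxes, a pair of which overlap by their last and first base, with no CCAAT or TATA box. The Gsk3b window held 4 CCAAT boxes and 1 TATA box and no GC box. The Nf1 window held 1 GC box. Of the 32851 windows of the same length in the table, 35.7% held a GC box, 37.4% a CCAAT box and 13.6% a TATA box. The windows held 19 (Nras), 21 (Gsk3b) and 30 (Nf1) CpG dinucleotides, against a median of 7 over all windows. The 3 windows thus shared a CpG count above the median, but this did not set them apart from the other members. Windows of the others held 34 (Hras), 30 (Rasa1), 8 and 42 (Akt1) and 34 and 6 (Pik3r1) CpG dinucleotides. No box was found in all 3 windows shown, and these matches are descriptions of sequence, not binding sites.

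Nras encodes a Ras GTPase. The gene lies on chromosome 3 from 103058285 to 103067914 on the forward strand of GRCm38.p6. Its summed level was 1095 CPM at puberty (95% Poisson interval 1080 to 1111) and 388 CPM in the adult (379 to 399). All such intervals cover the counting error of reads only, not the spread between cells or mice. The protocol had no molecular identifiers, so reads copied from the same molecule could not be merged, and the intervals may be too narrow. Over cells, the quartiles were 60, 690 and 1740 CPM at puberty and 20, 90 and 340 CPM in the adult, with highest cells of 7290 and 8190 CPM. The distributions overlapped, and the shares of cells with a read were close, at 89.5% (exact Clopper-Pearson interval 83.9 to 93.6%) and 84.9% (78.2 to 90.2%). What differed was the level in the cells that had Nras: the median of detecting cells was 870 CPM at puberty and 140 CPM in the adult. The log2 ratio of puberty over adult was 1.50 (1.45 to 1.54), a 2.82-fold difference. It was 1.57 against adult cells 48 to 188 and 1.34 against the other adult cells. The highest cell held 3.89% of the pubertal and 13.9% of the adult sum, and leaving out these cells gave 1.65.

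Gsk3b encodes a serine/threonine kinase that Akt inhibits and that also marks beta-catenin for degradation. It lies on chromosome 16 from 38089001 to 38246084 on the forward strand. Its summed level was 801 CPM (787 to 814) at puberty and 352 CPM (342 to 361) in the adult. The quartiles over cells were 205, 610 and 1050 CPM at puberty and 37.5, 140 and 432.5 CPM in the adult. Gsk3b was the most widely detected member, with reads in 97.7% (94.1 to 99.4%) of the cells at puberty and 89.5% (83.5 to 93.9%) in the adult. The log2 ratio was 1.19 (1.14 to 1.23), a 2.28-fold difference, and it was 1.07 and 1.51 against adult cells 48 to 188 and the other adult cells. The sum was spread over many cells, since 32 pubertal and 18 adult cells were needed to reach 50% of it.

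Nras and Gsk3b were the members past 2-fold, and none of the 7 was at least 2-fold higher in the adult. All 7 members reached 20 CPM, the minimum for the shares over all genes given above. Their median log2 ratio was 0.29, beside 0.09 over the 7806 genes. The study named Nras, Nf1 and Gsk3b in gene sets that were chosen on these same cells, so their direction here is not independent evidence of a stage difference. No test of the difference could be made with 1 sample per stage.

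Nf1 encodes neurofibromin, a GTPase-activating protein that switches Ras off. It lies on chromosome 11 from 79339590 to 79581609 on the forward strand, and its introns hold smaller genes of the opposite strand, such as Omg, Evi2a and Evi2b, none of which shares exon bases with it. Its summed level was 218 CPM (211 to 225) at puberty and 111 CPM (106 to 116) in the adult. Reads of Nf1 were present in 74.3% (67.0 to 80.6%) of the cells at puberty and 52.0% (43.7 to 60.1%) in the adult, with medians of 50 and 10 CPM. The log2 ratio was 0.98 (0.89 to 1.06), so the interval spans the 2-fold limit. It was 1.20 against adult cells 48 to 188 but 0.55 against the other adult cells. The level in the other adult cells rested on few of them: 16 of 45 had a read, and 2 cells held at least 50% of the sum.

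Rasa1 encodes p120 RasGAP, another GTPase-activating protein of Ras. It lies on chromosome 13 from 85214699 to 85289486 on the reverse strand. Ccnh, on the opposite strand, shares 12 of its exon bases, and the use of strand in the counting was not stated. Summed levels were 249 CPM (242 to 257) at puberty and 284 CPM (276 to 293) in the adult. More adult than pubertal cells had a read, 73.7% (65.9 to 80.5%) against 57.9% (50.1 to 65.4%), with medians of 30 and 10 CPM. A single pubertal cell at 10110 CPM held 23.7% of the pubertal sum. The log2 ratio was -0.19 (-0.25 to -0.13) and moved to -0.37 without the highest cell of each stage. It was 0.09 against adult cells 48 to 188 and -0.69 against the other adult cells, so its sign depended on the adult set.

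Hras encodes a second Ras GTPase. It lies on chromosome 7 from 141189934 to 141194019 on the reverse strand. Its summed level was 33.2 CPM (30.5 to 36.1) at puberty and 27.1 CPM (24.6 to 29.9) in the adult. Reads were found in 37 pubertal cells (21.6%) and 19 adult cells (12.5%), and the median cell of both stages had none. The log2 ratio of 0.29 (0.11 to 0.48) rested on few cells: 3 pubertal cells and 2 adult cells each held at least 50% of their stage's sum. The ratio was 0.51 against adult cells 48 to 188 and -0.12 against the other adult cells. It was 0.91 without the cells that had 3 or more fibroblast markers, and the part of those cells in the result was not tested further.

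Pik3r1 encodes p85-alpha, a regulatory subunit that stabilizes the catalytic subunit of PI3K and holds it inactive until a receptor is engaged. It lies on chromosome 13 from 101680761 to 101768217 on the reverse strand. Summed levels were 117 CPM (112 to 123) at puberty and 190 CPM (183 to 197) in the adult. Reads were present in 50.9% (43.1 to 58.6%) of the cells at puberty and 59.9% (51.6 to 67.7%) in the adult, with a median of 10 CPM in both stages. The log2 ratio was -0.70 (-0.78 to -0.61), and the adult sum was 1.62-fold that at puberty. It was -0.30 against adult cells 48 to 188 and -1.35 against the other adult cells. Pik3r1 was lower at puberty against either adult set, but past 2-fold only against the other adult cells.

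Akt1 encodes the kinase recruited by the lipid product of PI3K. It lies on chromosome 12 from 112653821 to 112674884 on the reverse strand. Summed levels were 31.2 CPM (28.6 to 34.0) at puberty and 35.8 CPM (32.8 to 38.9) in the adult. About the same share of cells had a read, 25.1% (18.8 to 32.3%) and 23.0% (16.6 to 30.5%). The log2 ratio of -0.20 (-0.37 to -0.02) joined opposite values: it was 1.04 against adult cells 48 to 188 and -1.44 against the other adult cells. Those other adult cells had 84.7 CPM of Akt1 in sum, and adult cells 48 to 188 had 15.2 CPM, although 22.2% and 23.4% of the cells had a read. In the other adult cells 1 cell, at 1660 CPM, held 43.6% of the sum, and in all adult cells it held 30.5%. Leaving out the highest cell of each stage gave 0.19.

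**Figure D2:**
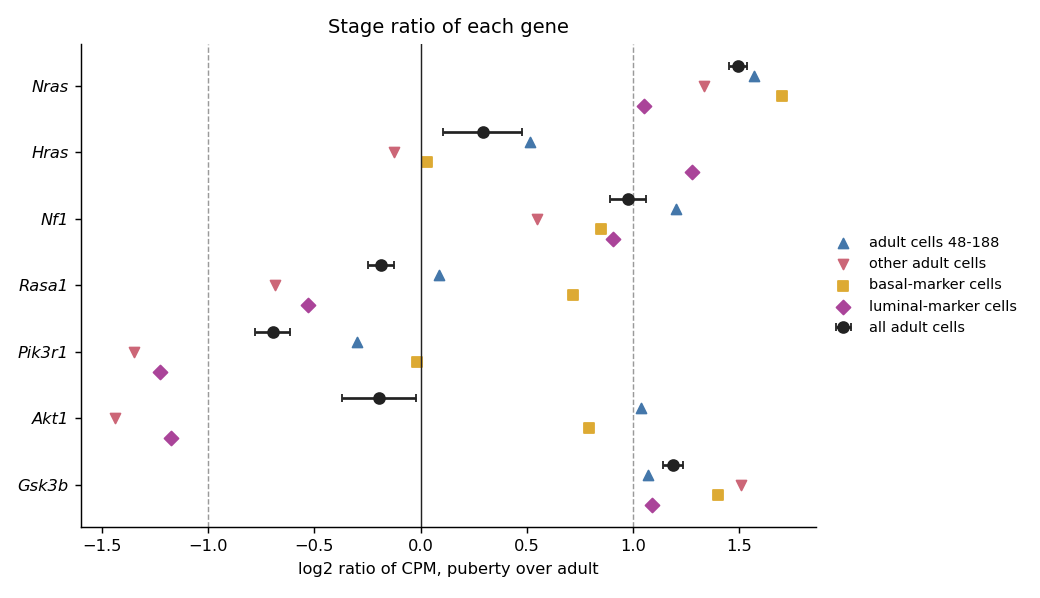
Log2 ratio of CPM, puberty over adult, for each gene; black circles compare all retained cells with 95% exact intervals of counting error, triangles use 1 adult set each, and squares and diamonds use basal-marker or luminal-marker cells of both stages. Dashed lines mark 2-fold. Nras and Gsk3b lay right of the 2-fold line with every symbol, and the symbols of Akt1 ran from -1.44 to 1.04.

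The 2 Ras GTPases, the 2 GTPase-activating proteins and the 3 PI3K and Akt genes differed in how evenly cells contributed. At puberty 50% of the sum was reached with 28 cells for Nras, 13 for Nf1, 11 for Pik3r1, 8 for Akt1, 5 for Rasa1 and 3 for Hras. In the adult the numbers were 12 for Nras, 8 for Pik3r1, 6 for Rasa1, 5 for Nf1, 3 for Akt1 and 2 for Hras. For every member but Rasa1 the adult sum rested on fewer cells than the pubertal one, with 152 adult and 171 pubertal cells in all.

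**Figure D3:**
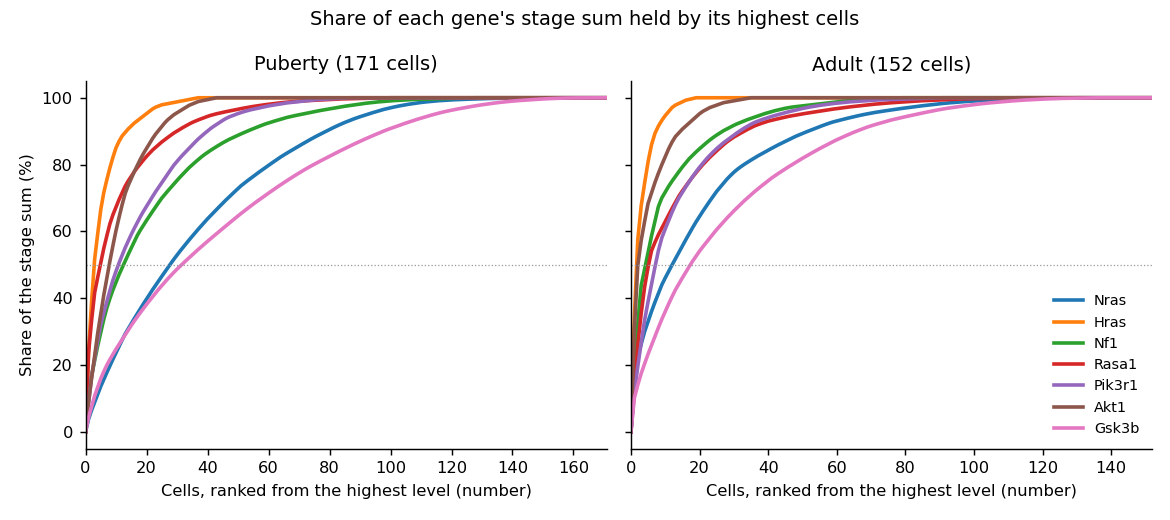
Share of each gene's stage sum (%) held by its highest cells, ranked from the highest level, in 171 pubertal and 152 adult cells; the dotted line marks 50%. The curve of Gsk3b crossed 50% at 32 pubertal and 18 adult cells, and that of Hras at 3 and 2.

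Levels of different genes were compared per kilobase of transcript (RPKM), which assumes reads along the whole transcript, an assumption that was not tested. At puberty the order was Nras at 245 RPKM, Gsk3b at 96.5, Rasa1 at 48.9, Nf1 at 18.4, Pik3r1 at 15.9, Hras at 14.6 and Akt1 at 11.6 RPKM. In the adult it was Nras at 86.9 RPKM, Rasa1 at 55.7, Gsk3b at 42.4, Pik3r1 at 25.8, Akt1 at 13.3, Hras at 11.9 and Nf1 at 9.36 RPKM. The counting intervals of Pik3r1 and Hras at puberty, and of Akt1 and Hras in the adult, overlapped. Among Nf1, Rasa1, Rasa2 and Rasa3, Rasa1 held the most at both stages (61.6 and 71.4%), while Nf1 held 23.2% at puberty and 12.0% in the adult. Pik3r1 held 61.4 and 83.3% of the RPKM of Pik3r1, Pik3r2 and Pik3r3. Gsk3b held 95.3% of the Gsk3 level at puberty, with Gsk3a holding the rest. No stretch of 75 bases, the word length chosen for this check, was shared with transcripts of another gene for 6 members, and 0.199% of such stretches were shared for Pik3r1.

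The stages differed in their mix of cells. Cells were placed in ranges by the difference between the mean log2(CPM + 1) of 12 basal and of 12 luminal markers, and none of the members is among these markers. A difference of at least 1 defined basal-marker cells and of -1 or less luminal-marker cells. These are ranges of a score, not cell types, and 7 pubertal and 8 adult cells lay within 0.25 of a limit. There were 41 basal-marker, 20 intermediate and 110 luminal-marker cells at puberty and 78, 22 and 52 in the adult. In a stage sum, more cells of a range and more RNA per cell of that range cannot be told apart, so the members were also compared within the ranges.

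Nras was lower in basal-marker than in luminal-marker cells at both stages. Its level was 763 CPM in basal-marker and 1252 CPM in luminal-marker cells at puberty, and 234 and 604 CPM in the adult. The log2 ratios of basal over luminal were -0.71 (-0.77 to -0.66) and -1.37 (-1.45 to -1.28), and within the adult sets -1.54 (cells 48 to 188) and -0.88 (the others). With the ranges set by keratin sums, Krt5 and Krt14 against Krt8 and Krt18 at 4-fold apart, the pubertal value was -0.07 and the adult value -1.39. Within the ranges, the stage ratio of Nras was 1.70 in basal-marker cells and 1.05 in luminal-marker cells, so it was past 2-fold in both. In luminal-marker cells of the adult the sum was uneven, with a median of 110 CPM, an upper quartile of 942.5 CPM and 1 cell that held 26.1%.

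Nf1 shared the direction of Nras. Its level was 108 CPM in basal-marker and 249 CPM in luminal-marker cells at puberty, and 60.1 and 133 CPM in the adult, giving log2 ratios of -1.20 (-1.35 to -1.06) and -1.15 (-1.32 to -0.97). The adult value was -0.61 without the highest cell of each range, as 1 adult luminal-marker cell held 43.6% of the sum there. It was -1.08 in cells 48 to 188 and -1.13 in the others, but 1 cell held 81.6 and 60.2% of these luminal-marker sums. In cells 48 to 188, Nf1 reads were found in 64.5% of basal-marker and 46.7% of luminal-marker cells, against the direction of the sums. In the others the shares were 25.0 and 50.0%. The shares of cells with Nf1 reads did not follow the sums in the adult, being 56.4% of basal-marker and 48.1% of luminal-marker cells, against 58.5 and 80.0% at puberty. The stage ratio of Nf1 was 0.85 in basal-marker and 0.91 in luminal-marker cells.

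Hras went the other way. It reached 50.0 CPM in basal-marker and 14.0 CPM in luminal-marker cells at puberty, and 49.0 and 5.77 CPM in the adult. The log2 ratios were 1.84 (1.53 to 2.15) and 3.09 (2.55 to 3.67), and 2.25 and 4.94 within the adult sets. Its reads came from 12 basal-marker and 19 luminal-marker cells at puberty and from 15 and 4 in the adult, and 2 cells held at least 50% of the basal-marker sum at each stage. Rasa1 was the other member with a higher sum in basal-marker cells at both stages. At puberty the log2 ratio was 1.38 (1.28 to 1.47), but 1 cell held 53.5% of the basal-marker sum and leaving out the highest cell of each range gave 0.64. In the adult the ratio was 0.13 (0.03 to 0.22), which joined 1.30 in cells 48 to 188 and -1.40 in the others. With keratin sums, Rasa1 was lower in basal cells at both stages, with log2 ratios of -0.92 and -0.58.

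Gsk3b differed little between the ranges. Its level was 891 CPM in basal-marker and 774 CPM in luminal-marker cells at puberty, and 338 and 363 CPM in the adult. The log2 ratios were 0.20 (0.15 to 0.26) and -0.10 (-0.19 to -0.02), with -0.53 in adult cells 48 to 188, 0.83 in the others and -0.78 in the adult with keratin sums. Its stage ratio was past 2-fold in both ranges, at 1.40 in basal-marker and 1.09 in luminal-marker cells. In luminal-marker cells it was 0.73 against the adult cells titled 48 to 188 and 1.79 against the others, and that of Nras was 1.01 and 1.11. Of the 7 members, Gsk3b had the smallest difference between the ranges at each stage. In the intermediate cells, too, Gsk3b and Nras were past 2-fold between the stages, with ratios of 1.04 and 1.10.

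Pik3r1 and Akt1 were higher in basal-marker cells at puberty and lower in them in the adult as a whole. Within adult cells 48 to 188 both were higher in basal-marker cells, with log2 ratios of 1.29 and 2.26, and within the others both were lower, at -1.35 and -2.64. These values rested on few cells. For Pik3r1 in cells 48 to 188, 2 cells held at least 50% of the basal-marker sum and 1 held 52.3% of the luminal-marker sum. In the others 1 cell held 55.1% of its basal-marker sum. Akt1 reads came from 2 luminal-marker cells in cells 48 to 188 and from 3 basal-marker cells in the others. For Pik3r1 the levels were 172 and 95.9 CPM in basal-marker and luminal-marker cells at puberty, and 174 and 224 CPM in the adult, with log2 ratios of 0.84 (0.70 to 0.98) and -0.37 (-0.48 to -0.25). In basal-marker cells Pik3r1 was thus at about the same level in the stages, with a stage ratio of -0.02 (-0.15 to 0.12), and the stage difference was seen in luminal-marker cells, at -1.23 (-1.35 to -1.10). That value depended on the adult set, being 0.43 against the 30 luminal-marker cells titled 48 to 188 and -2.17 against the 22 others. Akt1 had levels of 39.5 and 29.7 CPM at puberty and 22.8 and 67.1 CPM in the adult, with log2 ratios of 0.41 (0.13 to 0.69) and -1.56 (-1.82 to -1.29). Its stage ratio in luminal-marker cells, -1.17, was 2.67 against the adult cells titled 48 to 188 and -2.36 against the others. Both values rested on few adult cells. Of the 30 titled 48 to 188, 2 cells had Akt1 reads, 14 reads in all, and 1 cell held 78.6% of them. In the 22 others 5 cells had Akt1 reads and 1 held 49.6% of the sum. Rasa1 also split in luminal-marker cells, with stage ratios of 0.50 and -1.29. In basal-marker cells the ratios against the adult sets had the same sign for every member except Hras (0.46 and -0.96) and Pik3r1 (-0.02 and 0.02).

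**Figure D4:**
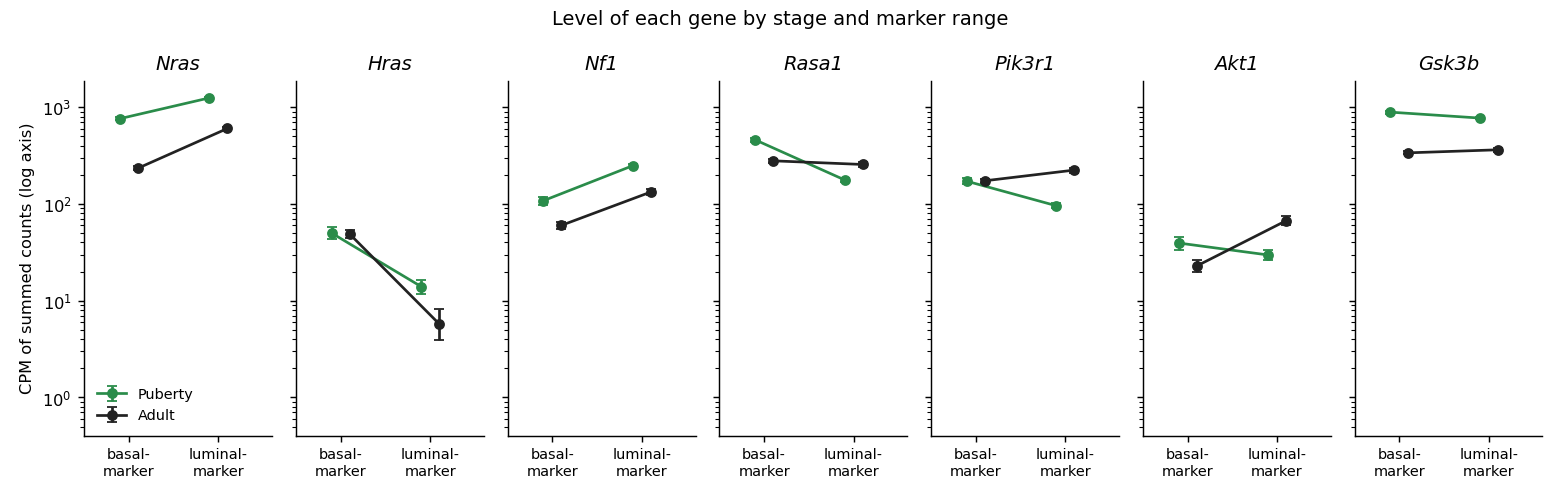
Level of each gene (CPM of summed counts, log axis) in basal-marker and luminal-marker cells at puberty (green; 41 and 110 cells) and in the adult (black; 78 and 52 cells), with 95% Poisson intervals of counting error. Nras and Nf1 sloped upward to luminal-marker cells at both stages, Hras sloped downward, and the lines of Rasa1 and Akt1 crossed.

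Luminal-marker cells were further parted by markers of hormone-sensing and of luminal progenitor cells, a split that was added after the data were seen. A difference of at least 1 between the marker means gave 89 hormone-sensing-marker and 18 progenitor-marker cells at puberty and 29 and 20 in the adult. The sums of Nras were 1293 and 1176 CPM at puberty and 687 and 489 CPM in the adult, but they did not describe the typical cell. The median was 1080 CPM in hormone-sensing-marker and 115 CPM in progenitor-marker cells at puberty, where 2 of the 18 progenitor-marker cells held at least 50% of the sum. In the adult the medians were 90 and 220 CPM, and 1 hormone-sensing-marker cell held 41.1% of the sum. The log2 stage ratios of the Nras sums were 0.91 and 1.27, while the median of progenitor-marker cells was lower at puberty than in the adult. Gsk3b was at 786 and 813 CPM at puberty and at 354 and 270 CPM in the adult. Its stage ratios were 1.15 and 1.59, and its medians were also higher at puberty, at 620 against 180 CPM and 595 against 100 CPM. Nf1 had 234 and 136 CPM at puberty but 38.6 and 284 CPM in the adult. In the adult progenitor-marker cells, 1 cell held 53.3% of the Nf1 sum, and the shares of cells with Nf1 reads were 48.3% in hormone-sensing-marker and 50.0% in progenitor-marker cells. The sums of Pik3r1 were 104 CPM in hormone-sensing-marker and 48.3 CPM in progenitor-marker cells at puberty and 287 and 162 CPM in the adult. At puberty the medians, 0 and 15 CPM, and the shares of cells with a read, 43.8 and 55.6%, ran the other way, and in the adult 1 cell held 48.9% of the progenitor-marker sum.

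How often members are found together depends on how widely each is detected. Nf1 alone had reads in 74.3% of pubertal and 52.0% of adult cells, for example. The joint shares below were not compared with what the separate shares would give. The median cell had reads of 4 of the 7 at both stages, with quartiles of 3 and 5, and every retained cell had at least 1. All 7 were found in 6 pubertal and 5 adult cells. Nras, Nf1 and Gsk3b were all detected in 116 pubertal cells (67.8%, 60.3 to 74.8%) and 69 adult cells (45.4%, 37.3 to 53.7%). The adult share was 52.3% (42.5 to 62.1%) in cells 48 to 188 and 28.9% (16.4 to 44.3%) in the others. By marker range, it was 56.1% in basal-marker and 71.8% in luminal-marker cells at puberty, and 52.6 and 38.5% in the adult. These intervals cover the counting of cells only, and the 3 genes are those with the largest stage ratios, so the shares are a description and no separate evidence of a stage difference.

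Over the 323 cells, the closest pair of members by Pearson correlation of log2(CPM + 1) was Nras with Gsk3b (0.34), followed by Nras with Nf1 (0.30) and Nf1 with Gsk3b (0.22). The points share stage, sort and sparse counts, and the correlations are given as a description. They pool stages in which the levels of these genes differ. Within puberty and within the adult the values were 0.26 and 0.31 for Nras with Gsk3b, 0.25 and 0.26 for Nras with Nf1, and 0.20 and 0.10 for Nf1 with Gsk3b. The last was lower in the adult than Nras with Rasa1 (0.21), Nf1 with Rasa1 (0.20) and Rasa1 with Gsk3b (0.18). Among 3957 genes detected in at least 25% of cells, the gene with the highest pooled value for both was Usp22, a ubiquitin protease, with 0.40 for Nras and 0.46 for Gsk3b. Its level was 2071 CPM at puberty and 499 CPM in the adult. The values were 0.40 and 0.49 within puberty and 0.27 and 0.26 within the adult. The next were Gpc1, a cell surface proteoglycan, for Nras (0.37) and Klhl9 for Gsk3b (0.43). Gpc1, at 791 CPM at puberty and 102 CPM in the adult, had values of 0.33 and 0.22 within the stages. Klhl9 was at 0.26 within puberty, below Usp22, and at 0.40 within the adult, above it. The closest genes to Nf1 were Zfc3h1 (0.33) and Wdr1 (0.31), to Rasa1 Clic4 (0.34) and Cand1 (0.30), and to Pik3r1 Birc2 (0.28) and Bdnf (0.24). These values are low.

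The surrounding pathway was read from 61 further genes in 9 lists by role, of which 44 reached 20 CPM in a stage. Among these, 11 (25.0%) were at least 2-fold higher at puberty and 4 (9.09%) at least 2-fold higher in the adult, beside 20.3% and 14.7% of all genes, so the counts lay near the background. Their median log2 ratio was 0.43, beside 0.09 over all genes.

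None of the 3 other Ras GTPases that reached 20 CPM was 2-fold apart. Rras had 38.5 and 36.3 CPM, with ratios of 0.61 against adult cells 48 to 188 and -0.70 against the others. Of the exchange factors and adaptors, 1 of 7 was past 2-fold: Shc1, an adaptor of receptor tyrosine kinases, with 19.9 CPM at puberty and 52.4 CPM in the adult. Its log2 ratio of -1.40 was 0.01 against adult cells 48 to 188, and 1 cell held 42.0% of the adult sum. Grb2, the adaptor that brings the exchange factor Sos to receptors, had 22.8 and 36.1 CPM, with ratios of -0.40 and -1.15 against the adult sets. Of the GTPase-activating proteins and Ras inhibitors, 2 of 7 were higher at puberty past 2-fold. Spry2, a feedback inhibitor of receptor signaling, had 296 CPM at puberty and 144 CPM in the adult, in 87.1 and 80.9% of cells, with a log2 ratio of 1.04 (0.97 to 1.11). The ratio of Spry2 was under 2-fold against the other adult cells (0.71) and with TMM scaling (0.92), an alternative to scaling by totals. Dab2ip, a Ras GTPase-activating protein, was low, at 20.9 and 6.97 CPM, and its ratio of 1.59 was 0.97 against the other adult cells.

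Of the Raf, MEK and ERK kinases, 1 of 7 was past 2-fold. Mapk3, which encodes ERK1, had 60.1 CPM at puberty and 29.3 CPM in the adult, a ratio of 1.04 that was under 2-fold against adult cells 48 to 188 (0.86) and with TMM scaling (0.91). Braf had 194 and 112 CPM, with ratios of 1.12 against adult cells 48 to 188 and 0.22 against the others. Of 4 measured ERK target genes, 1 was past 2-fold. The sums were higher at puberty for 3 of them and lower for the other, with a median log2 ratio of 0.42. The phosphatase gene Dusp4 had the largest ratio, 25.0 against 2.43 CPM. The log2 ratio of Dusp4, 3.36 (2.88 to 3.89), was the same against both adult sets, but its adult level rested on 37 reads. Its reads came from 17.0% of the cells at puberty and 5.92% in the adult. Ccnd1, which encodes cyclin D1, had 514 CPM in 83.0% of pubertal cells and 316 CPM in 55.3% of adult cells, with a log2 ratio of 0.70.

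Of the PI3K subunits, Pik3r3 was past 2-fold, with 22.9 CPM at puberty and 11.1 CPM in the adult, and its log2 ratio of 1.04 was -0.11 against the other adult cells and 0.92 with TMM scaling. Pik3ca, the catalytic subunit that Pik3r1 binds, had 100 and 72.4 CPM, with ratios of 0.18 and 1.55 against the adult sets. Phlpp1, a phosphatase of Akt, had 24.7 and 24.6 CPM. Of the Akt kinases and activators, 6 were measured. Mapkap1, a subunit of the mTORC2 complex, had 57.3 and 25.0 CPM, and its ratio of 1.20 was 1.77 against adult cells 48 to 188 and 0.36 against the others. Mtor had 16.3 and 39.0 CPM, with log2 ratios of -1.28 and -1.21 against the adult sets.

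Of the 9 Akt targets and mTORC1 genes 6 reached 20 CPM, and these were past 2-fold, 4 higher at puberty and 2 higher in the adult. Against the other adult cells, where 49.3% of all genes were past 2-fold, 3 of the 6 were under it: Pdcd4 (0.94), Foxo1 (-0.80) and Rheb (-0.75), the last named after its values were seen. Pdcd4, a translation inhibitor that is degraded after phosphorylation by S6 kinase and Akt, had 599 CPM in 95.9% of pubertal cells and 199 CPM in 83.6% of adult cells, with a log2 ratio of 1.59 (1.53 to 1.65). Foxo1, a transcription factor that Akt excludes from the nucleus, had 58.1 CPM at puberty and 150 CPM in the adult. The log2 ratio of Foxo1 was -1.37 (-1.48 to -1.26), and it was -1.55 against adult cells 48 to 188.

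**Figure D5:**
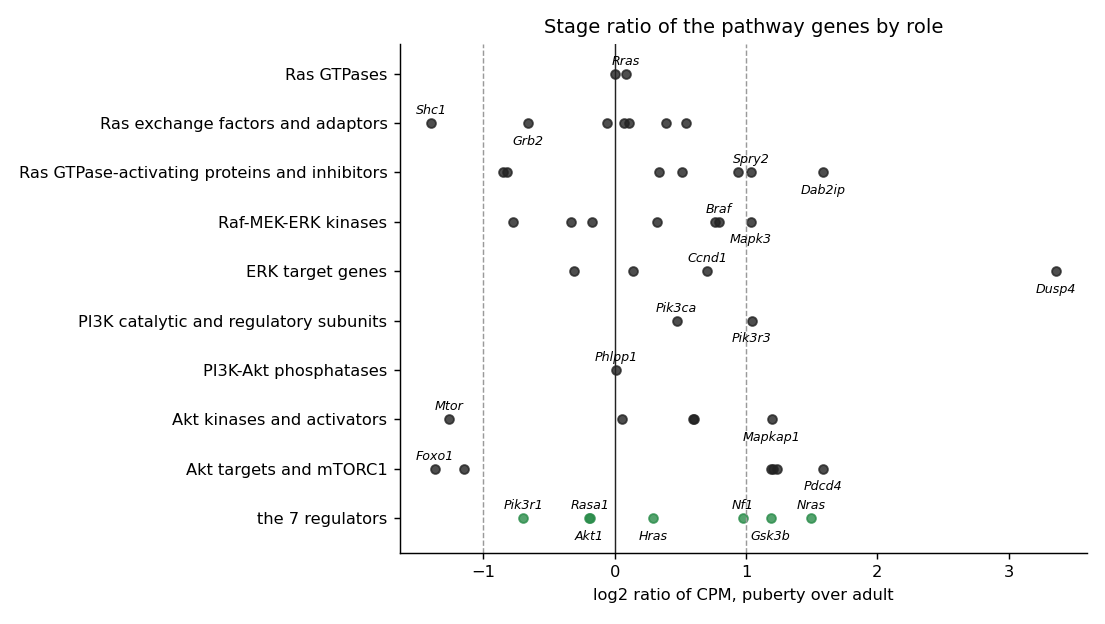
Log2 ratio of CPM, puberty over adult, for 41 of the 44 pathway genes that reached 20 CPM (dark points, by role) and the 7 regulators (green); each point is a gene and dashed lines mark 2-fold. Dusp4 lay farthest right at 3.36, and no regulator lay left of the lower 2-fold line.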

How the data were processed

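The deposited tables, 1 for each cell, hold raw counts of read pairs. Reads had been aligned by the authors to mm10 with Subread, and featureCounts had assigned them using RefSeq genes as supplied with Rsubread. There were no molecular identifiers, and tool versions and the use of strand are not given in the sources used here. A combined table was not used. Of 27179 gene identifiers, 25275 matched RefSeq (GRCm38.p6); unmatched identifiers held 1.84% of read pairs, and 15 mitochondrial and 124 ribosomal protein genes were also left out, as in the study. Retained cells were thinned to 100000 read pairs (random seed 1), summed per stage and scaled to CPM. Ratios have no prior count, and their 95% intervals are exact conditional intervals of counting error. A gene at least 2-fold apart among genes with 20 CPM or more in a stage is counted as past 2-fold. The calculation was tested on simulated data. TMM scaling (edgeR 4.0.16) was an alternative. Named pathway genes are at most 2 per role list, those with the largest ratios and no single cell holding 50% of the higher sum; some genes are not reported here. Genes named by likeness are the 2 with the highest correlation for each member detected in 25% or more of cells. Members and lists were chosen with earlier results of these data known. Alternatives are given in the closing section. Cells were treated as parts of 1 sample per stage because the labels name no animal. Python 3.11.15, numpy 2.4.6, scipy 1.17.1 and R 4.3.3 were used.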

Additional observations from a re-analysis of the deposited data

How the results depend on the processing

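Over 13 alternatives of scaling, filters and cells, Nras ranged from 1.05 to 1.81 and Gsk3b from 1.07 to 1.51 on the log2 scale, at least 2-fold higher at puberty in 13 of 13 each. Nf1 was positive in 13 of 13 (0.55 to 1.54) and past 2-fold in 7. Hras was positive in 12 (-0.12 to 1.28), Akt1 in 6 (-1.44 to 1.04), Rasa1 in 2 (-0.97 to 0.72) and Pik3r1 in 0 (-1.35 to -0.02). The median ratio of the members, 0.29, was 0.51 with at least 200000 read pairs and 2500 genes, 0.50 without the highest cell of each gene in each stage, 1.04 against adult cells 48 to 188, -0.12 against the other adult cells, 0.79 in basal-marker cells, 0.91 in luminal-marker cells and 0.91 without cells with fibroblast markers; the sets of cells differ by construction, and the cause was not tested. The number of members at least 2-fold apart, 2, was 4 against adult cells 48 to 188 (4 higher at puberty), 4 against the other adult cells (2 higher and 2 lower) and 5 in luminal-marker cells (3 higher and 2 lower). The share of all genes past 2-fold in either direction rose with it, from 35.0% to 42.3, 49.3 and 48.1%. The number of members higher in basal-marker cells at both stages, 2, was 1 with a marker difference of 2, 1 with keratin sums and 4 with adult cells 48 to 188 only (Hras, Rasa1, Akt1 and Pik3r1). With the other adult cells only it was 2, but these were Hras and Gsk3b. TMM scaling moved the median of all genes from 0.09 to -0.05 and the pathway counts from 11 higher and 4 lower to 7 and 4. No paired analysis was possible because the numbers in the labels only name cells and the values come from no test. With 1 sample per stage, variation between mice, sorts and capture runs was not measured, and levels under 1 read per cell at this depth were not detectable.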
